A study of Mus musculus with 6 samples.

Results

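Nuclear receptors are transcription factors that mostly share a zinc-finger DNA-binding domain and a ligand-binding domain. The members described here are 34 mouse genes chosen by name for their known or proposed work in gut epithelium. They are sensors of fatty acids, oxysterols and xenobiotics, receptors for retinoids, steroids and thyroid hormone, the REV-ERB and ROR receptors of the circadian clock, and orphan receptors without a settled natural ligand. Of the 34 genes, 32 had a row among the 23390 genes of the deposited table, and 28 passed the filter on low counts that left 13740 genes for testing. Rxrg and Nr2f1 are not analysed here. Rarb, Esr1, Nr4a3 and Esrrb had a row but too few reads to test. The deposited annotation placed 15 of the 32 genes in its THR-like family, 6 each in the RXR-like and ESR-like families, 3 in the NGFIB-like family and 1 each in the SF-like and GCNF-like families.

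In the intestine, nuclear receptors couple what is absorbed to what epithelial cells make. Many bind DNA as pairs with a retinoid X receptor (RXR), and when a ligand such as a fatty acid, an oxysterol, a bile acid or a retinoid is bound, corepressors are exchanged for coactivators. PPAR alpha and PPAR delta drive genes of fatty acid oxidation, PXR and CAR drive genes of drug metabolism, and REV-ERB alpha and beta repress the clock gene Arntl through sites that ROR proteins activate.

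RNA was sequenced from viable CD45- EpCAM+ cells sorted from the small intestine of C57BL/6 mice, with 3 libraries from Vil.Cre Maf.flox mice and 3 from Maf.flox mice. Both groups carry floxed Maf, the gene of the basic leucine zipper transcription factor c-Maf, and only the Vil.Cre Maf.flox mice carry Cre, which the villin promoter drives in intestinal epithelium. No group carried Cre alone, so the effect of Cre and that of Maf loss cannot be told apart. The labels give no age, hour of collection or batch and do not state that the libraries came from separate mice, so part of the spread behind each p-value may be technical. The comparison asks what loss of c-Maf changed in epithelial RNA. Maf itself had 16, 1 and 1 counts in Vil.Cre Maf.flox replicates 1, 2 and 3, against 9398, 5615 and 3893 counts in Maf.flox replicates 1, 2 and 3. Total counts ran from 17464355 to 21631476 in Vil.Cre Maf.flox and from 19842751 to 24802525 in Maf.flox. Values below are CPM, counts scaled to library size by TMM factors, and 1 CPM stood for 17.0 to 23.8 counts. Levels of different genes are compared only as deposited FPKM, which also divides by gene length. By their Xist and Y-linked reads the libraries were from 2 males and 1 female in Vil.Cre Maf.flox and 1 male and 2 females in Maf.flox, so each group held at least 2 mice.

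The sort was checked against markers. Epcam, the sorted surface protein's gene, had 1968, 2225 and 1922 CPM in Vil.Cre Maf.flox and 2232, 2305 and 1998 CPM in Maf.flox. Ptprc, which encodes CD45, stayed between 0.101 and 0.587 CPM in Vil.Cre Maf.flox and between 0.285 and 2.29 CPM in Maf.flox. Leukocyte markers summed to 21.8 to 31.0 CPM and 19.6 to 28.3 CPM, and those of stroma and endothelium to 15.19 to 19.97 CPM and 13.4 to 15.4 CPM. Of these, 7 of 11 leukocyte markers and 8 of 10 stromal and endothelial markers were under 1 CPM in every library. The highest were Lcp1 (mean 16.7 CPM) and Pdgfrb (mean 8.68 CPM). Markers of enteric neurons and glia summed to at most 0.507 CPM in Vil.Cre Maf.flox and 0.379 CPM in Maf.flox. The makeup of the epithelium was less even. The 7 enterocyte markers summed to 5552, 7466 and 4080 CPM in Vil.Cre Maf.flox and to 16050, 15300 and 6774 CPM in Maf.flox. The log2 fold change was below 0 for all 7, the median was -1.23, and none was called. Other lineages also lay mostly below 0, again with none called. Of tested markers this held for 8 of 8 tuft (median -1.77), 5 of 5 stem cell (-0.37) and 5 of 6 Paneth cell markers (-1.12). It also held for 5 of 6 goblet (-0.28) and 6 of 8 enteroendocrine markers (-0.61). Tuft cell markers summed to 15.3 to 17.1 CPM in Vil.Cre Maf.flox and 19.7 to 87.4 CPM in Maf.flox. Paneth cell markers reached 6210 to 8652 CPM and 4402 to 26760 CPM, goblet cell markers 14060 to 26550 CPM and 14080 to 32750 CPM, and enteroendocrine markers 260.5 to 489 CPM and 294.5 to 803.9 CPM. Stem cell markers summed to 1608 to 2224 CPM in Vil.Cre Maf.flox and 1848 to 2615 CPM in Maf.flox. Markers of the proximal small intestine summed to 58.8 to 63.7 CPM and 54.7 to 79.4 CPM, and those of the distal part to 5694 to 11780 CPM and 5278 to 9789 CPM. The part of these shifts in the receptor values was not tested. In such bulk libraries, fewer cells of a type and less RNA per cell cannot be told apart.

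The promoters of 3 genes are shown because these lie at the centre of the results on the clock and on immediate early receptors. Each run is the 250 bases before the RefSeq start (GRCm38.p6), given 5′ to 3′ on the gene's strand. Nr1d1 and Nr1d2 encode REV-ERB alpha and REV-ERB beta and had the lowest log2 fold changes among members above 1 CPM. Nr4a1 encodes NUR77, which activity and stress induce within minutes. Capitals mark AGGTCA in Nr1d2, the core hexamer to which many nuclear receptors bind, and CGTCA in Nr4a1, which is TGACG on the other strand, the core of the cAMP response element. The Nr1d1 window, chr11:98775378-98775627 on the minus strand, held none of the motifs searched. The Nr1d2 window is chr14:18239107-18239356 on the minus strand. The Nr4a1 window is chr15:101266596-101266845 on the plus strand, and its start lies 12577 bases from the 5′ end of the gene in the deposited table.
Nr1d1: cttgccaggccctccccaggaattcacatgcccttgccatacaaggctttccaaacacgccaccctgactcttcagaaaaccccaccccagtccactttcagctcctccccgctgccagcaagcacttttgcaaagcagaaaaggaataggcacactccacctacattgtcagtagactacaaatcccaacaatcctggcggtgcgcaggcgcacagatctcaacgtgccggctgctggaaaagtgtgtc
Nr1d2: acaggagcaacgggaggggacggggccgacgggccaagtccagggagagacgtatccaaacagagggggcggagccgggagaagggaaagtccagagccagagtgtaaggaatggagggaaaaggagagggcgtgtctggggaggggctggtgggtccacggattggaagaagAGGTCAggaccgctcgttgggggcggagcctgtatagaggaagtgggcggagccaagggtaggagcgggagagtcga
Nr4a1: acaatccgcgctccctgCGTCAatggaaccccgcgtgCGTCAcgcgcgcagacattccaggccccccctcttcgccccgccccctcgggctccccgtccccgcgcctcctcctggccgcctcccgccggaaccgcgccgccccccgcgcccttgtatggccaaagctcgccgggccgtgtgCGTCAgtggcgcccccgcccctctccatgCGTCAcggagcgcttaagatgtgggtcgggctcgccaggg

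Of the 32 members, 30 had such a window among 13665 promoters of genes in the table, searched on both strands. TGACG was in 9 members and in 24.2% of all promoters, and the 9 included Nr4a1, Nr4a2 and Nr4a3 with Ppara, Rxrb, Thrb, Nr2c1, Nr2c2 and Esrrb. AGGTCA was in 5 members, Nr1d2, Nr5a2, Pparg, Rarg and Thrb, and in 11.6% of all promoters. The longer REV-ERB and ROR element TNAGGTCA, which contains AGGTCA, was in Pparg alone and in 3.09% of all promoters. The E-box CACGTG, bound by clock activators, was in Nr1i3 alone and in 7.68% of all promoters. The D-box TTATGNAA, bound by Dbp, Tef and Nfil3, was in no member window and in 2.01% of all promoters. TGCTGA, the core that Maf proteins recognise, was likewise in no member window and in 13.5% of all promoters.

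Levels over all 6 libraries spanned several orders of magnitude. Esrra, the receptor ERR alpha that drives mitochondrial genes, stood highest with a mean of 129.6 FPKM and a range of 110.0 to 145.5 FPKM, which no other member reached. Its FPKM made up 27.0 ± 2.13% of the summed member FPKM in Vil.Cre Maf.flox and 26.5 ± 1.3% in Maf.flox (SD, n = 3 each). Both the level and the share rest on a deposited gene length of 2539 bases, while the GENCODE M21 annotation gives Esrra 4387 exon bases. Then came Rxra with a mean of 39.8 FPKM, Nr1i2 with 38.4, Ppard with 33.8, Nr1h2 with 32.3 and Thra with 27.99 FPKM. Nr2f6 (25.7), Nr3c1 (24.2), Nr1h3 (23.9), Nr1d1 (18.8), Rxrb (17.0), Nr5a2 (15.04) and Rara (11.8) followed with mean FPKM above 10. From Ppara with 8.44 FPKM the order went through Nr3c2 (7.44), Nr4a1 (6.00), Nr1d2 (4.32) and Thrb (3.95) to Nr2c1 (3.92). Pparg (2.16), Nr2c2 (2.03), Rarg (1.73), Nr2f2 (1.66), Nr4a2 (1.44), Esrrg (1.37) and Nr6a1 (1.32) averaged between 1 and 3 FPKM. Nr1i3 had a mean of 0.442 FPKM and Rora 0.0452 FPKM. Neighbours in this order overlapped in their range over the 6 libraries except at 4 steps, which came after Esrra, after Nr2c1, after Nr6a1 and after Nr1i3. Exon bases of 10 members are shared with an opposite-strand gene, and their levels may be affected if counting ignored strand.

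The remaining 4 genes were close to the limit of detection. Rarb, a retinoic acid receptor, had 2, 0 and 0 counts in Vil.Cre Maf.flox and 0, 0 and 1 in Maf.flox. The opposite-strand gene Top2b covers 34.1% of the exon bases of Rarb, where reads cannot be assigned if counting ignored strand. Esrrb, an estrogen-related receptor of early embryonic cells, had 0 counts in each Vil.Cre Maf.flox library and 1, 0 and 1 in Maf.flox. Esr1, estrogen receptor alpha, had 0, 3 and 3 counts in Vil.Cre Maf.flox, against 12, 8 and 3 in Maf.flox. Nr4a3, which encodes NOR1, had 0, 5 and 2 counts in Vil.Cre Maf.flox and 4, 10 and 5 in Maf.flox. These counts are too low to tell the groups apart at this depth.

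**Figure D1:**
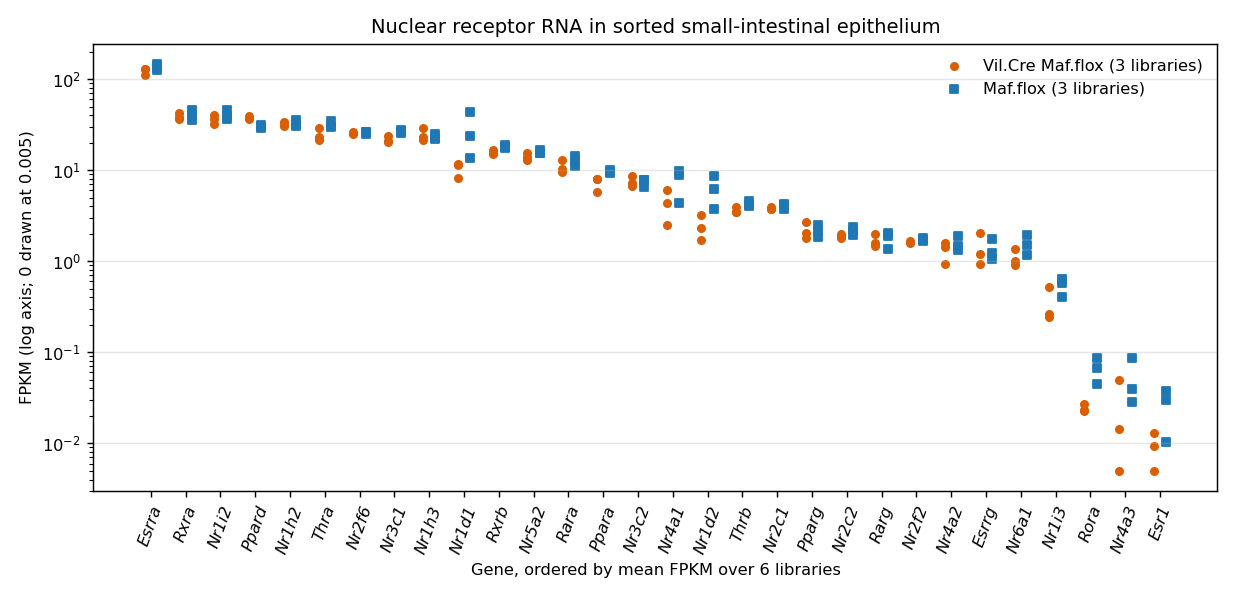
Deposited FPKM (log axis) of 30 nuclear receptor genes in each library, ordered by their mean over 6 libraries, with Vil.Cre Maf.flox as orange circles left of Maf.flox as blue squares and values of 0 drawn at 0.005. Esrra stands apart at the top, and among genes with a mean above 1 FPKM the group means differ by the largest ratio at Nr1d1 and Nr1d2. Rarb and Esrrb, with 3 and 2 counts in all, are left out.

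No nuclear receptor gene was called between the genotypes: 0 of 28 passed an FDR of 0.05 in edgeR's quasi-likelihood test, against 75 of all 13740 genes tested (0.546%). DESeq2 called 2 of the members (5.09% of all genes), Nr1d2 as lower (3.26%) and Ppard as higher (1.82%), and limma-voom called 0 (0.218%). At an unadjusted p under 0.05, edgeR counted 9 members (32.1%, against 16.4% of all genes), 8 of them lower (9.25%) and 1 higher (7.11%). DESeq2 counted 9 at that level (15.0%) and limma-voom 8 (15.6%). In edgeR the 8 lower genes were Nr1d1, Nr1d2, Rora, Nr3c1, Nr6a1, Ppara, Thra and Thrb, and the higher one was Ppard. The DESeq2 genes held Nr4a1 in place of Thrb, and the limma-voom genes lacked Nr6a1. In 10 members every Vil.Cre Maf.flox library lay below every Maf.flox library (10.5% of all genes), and in 1 member, Ppard, every one lay above (10.1%), so 11 did not overlap (20.6% of all genes). The log2 fold changes of the 28 members had a median of -0.187, with 24 below 0 and 4 above, while those of all genes tested had a median of -0.0102, with 51.6% below 0. The member count of 0 was the same with each library left out, whereas leaving out Vil.Cre Maf.flox replicate 3 gave 8 calls over all genes and leaving out Maf.flox replicate 3 gave 701.

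For many members the data bounded the difference. Of the 28 members, 22 had a log2 fold change within 0.5 of 0 (78.6%, against 84.8% of all genes), and their median standard error was 0.128. The 95% interval held 0 in 19 members. It lay wholly within 0.5 of 0 for 14, namely Esrra, Nr1h2, Nr1h3, Nr1i2, Nr2c1, Nr2c2, Nr2f2, Nr2f6, Nr3c2, Nr5a2, Pparg, Rxra, Rxrb and Thrb. No share over all genes is given for these interval counts, so they do not set the members apart from other genes. Sex did not match between the groups, so each ratio was also taken within males (2 Vil.Cre Maf.flox and 1 Maf.flox libraries) and within females (1 and 2). The sign was the same in both for 24 of the 28, the others being Pparg, Nr1h3, Nr3c2 and Nr2f6. These ratios reuse the libraries of the main fit, so the count is no separate check, and it has no share over all genes beside it.

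**Figure D2:**
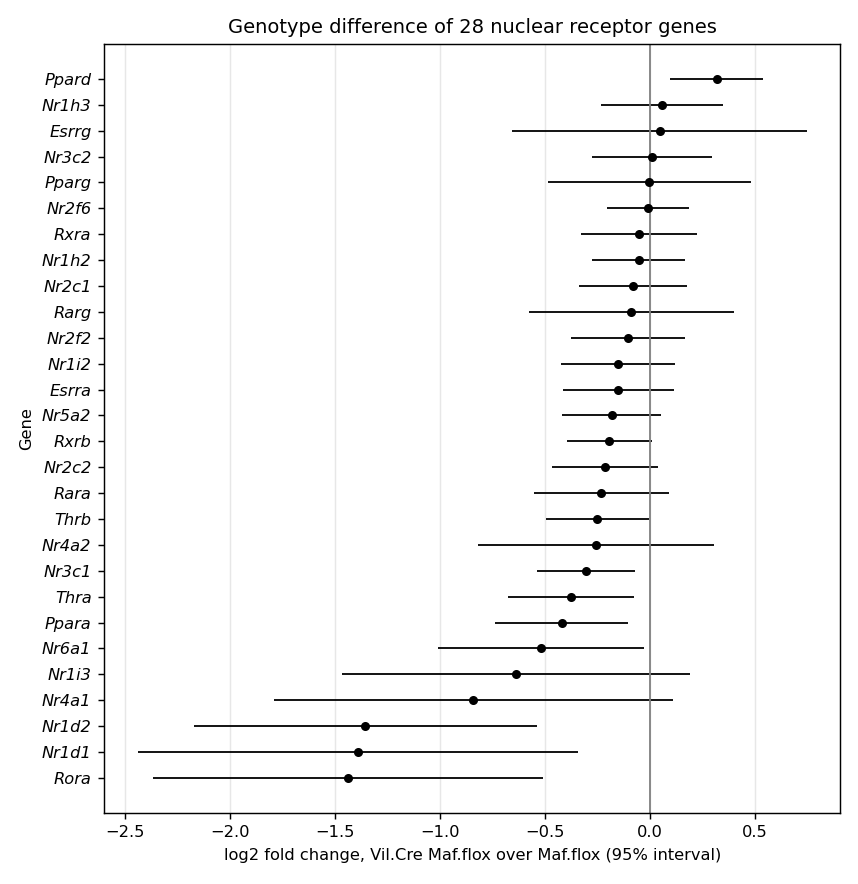
Log2 fold change of the 28 tested nuclear receptor genes, Vil.Cre Maf.flox over Maf.flox, with 95% intervals from edgeR, 3 libraries a group. Nr1d1, Nr1d2 and Rora lie between -1.44 and -1.36 with wide intervals, Ppard lies at 0.32, and most others lie near 0 with narrow intervals.

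Among the sensors of lipids, the 3 PPAR genes differed from each other. Ppara, which drives fatty acid oxidation and ketogenesis, had 21.9, 30.9 and 30.4 CPM in Vil.Cre Maf.flox, against 37.9, 37.4 and 35.95 CPM in Maf.flox. Vil.Cre Maf.flox replicate 1 was the lowest, and the groups did not overlap. The log2 fold change was -0.42 (SE 0.139, edgeR adjusted p = 0.191), and -0.27 without Vil.Cre Maf.flox replicate 1. Within males the ratio was -0.52 and within females -0.27. Ppard, which answers to fatty acids in crypt and stem cells, had 283.4, 292.7 and 271.1 CPM in Vil.Cre Maf.flox and 216.9, 236.5 and 226.2 CPM in Maf.flox. All Vil.Cre Maf.flox libraries were above all Maf.flox libraries, with little spread in either group. Its log2 fold change of 0.32 (SE 0.0976) had an edgeR adjusted p of 0.167, and over the alternatives tried it kept between 0.30 and 0.36, with an adjusted p of 0.0426 by DESeq2 and up to 0.468 elsewhere. Within males it was 0.41 and within females 0.23. The ratio of Ppard to Ppara CPM, chosen after the values were seen, was 12.9, 9.48 and 8.92 in Vil.Cre Maf.flox and 5.72, 6.32 and 6.29 in Maf.flox. Because CPM is not divided by gene length, this ratio compares libraries and not the levels of Ppard and Ppara. Pparg, best known from fat cells and present in colon epithelium, averaged 6.38 ± 1.38 CPM in Vil.Cre Maf.flox and 6.37 ± 0.931 CPM in Maf.flox (SD, n = 3 each).

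The oxysterol receptors LXR alpha and beta had intervals close around 0. Nr1h2, which encodes LXR beta, had 111.8, 106.0 and 101.5 CPM in Vil.Cre Maf.flox and 119.2, 109.4 and 102.8 CPM in Maf.flox. The groups overlapped, and the log2 fold change of -0.05 had a 95% interval of -0.28 to 0.17. Nr1h3, which encodes LXR alpha, ranged from 53.4 to 73.1 CPM in Vil.Cre Maf.flox and from 56.0 to 62.6 CPM in Maf.flox, with an interval of -0.23 to 0.35. Of the 13 tested PPAR target genes, 9 lay below 0 on the log2 scale (median -0.23) and 0 passed in edgeR. The median was nearest 0 without Maf.flox replicate 1, at -0.12, and lowest without Vil.Cre Maf.flox replicate 3, at -0.38. Their smallest p-values were those of Angptl4 and Vnn1. Angptl4, which inhibits lipoprotein lipase, had 6.39, 6.34 and 6.76 CPM in Vil.Cre Maf.flox and 38.1, 21.7 and 15.6 CPM in Maf.flox (log2 fold change -1.95, edgeR adjusted p = 0.0519). Vnn1, a pantetheinase, had a log2 fold change of -1.21. Of 8 LXR target genes, 7 lay below 0 with a median of -0.40 and 0 passed. The smallest p-values were those of Mylip, which targets the LDL receptor for breakdown, with a log2 fold change of -1.17, and Abcg8, part of the sterol exporter, with -0.57. Leaving out Vil.Cre Maf.flox replicate 2 gave an LXR median of -0.73, and leaving out replicate 3 gave -0.19.

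Neither xenobiotic sensor passed the edgeR test, and neither did any of the 12 tested genes listed as their targets. Nr1i2 encodes PXR, which binds drugs and steroids, and had 82.6, 103.5 and 93.2 CPM in Vil.Cre Maf.flox, against 114.8, 100.6 and 94.4 CPM in Maf.flox. The groups overlapped, and the log2 fold change of -0.15 had a 95% interval of -0.42 to 0.12. Nr1i3, which encodes CAR, ranged from 1.07 to 2.31 CPM in Vil.Cre Maf.flox and from 1.77 to 2.86 CPM in Maf.flox. Its log2 fold change of -0.64 (SE 0.365) lay between -1.09 and -0.43 over the alternatives. In GENCODE M21 the opposite-strand gene Tomm40l covers 74.9% of the exon bases of Nr1i3, so reads in those bases cannot be assigned if counting ignored strand. All 12 tested PXR and CAR target genes lay below 0 on the log2 scale (median -1.41), yet 0 passed in edgeR over all genes. At an unadjusted p under 0.05, 8 of the 12 were lower, against 9.25% of all genes. Abcc2 and Cyp2b10, named for their small p, were each called in 2 of 14 alternative fits. Abcc2, which exports conjugated compounds, had 35.0, 57.6 and 59.7 CPM in Vil.Cre Maf.flox and 188.0, 254.5 and 104.3 CPM in Maf.flox (log2 fold change -1.84, edgeR adjusted p = 0.0851). Cyp2b10, a cytochrome P450 that CAR controls in liver, had 0.609, 1.53 and 1.84 CPM in Vil.Cre Maf.flox and 20.8, 21.4 and 4.13 CPM in Maf.flox (-3.53, edgeR adjusted p = 0.093). Their Vil.Cre Maf.flox libraries all lay below the Maf.flox libraries. Maf.flox replicate 3 was the lowest of its group in both genes and in the sum of the enterocyte markers. The median of the 12 was -2.01 within males and -1.03 within females.

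None of the 4 tested retinoid receptors passed, and their log2 fold changes lay between -0.23 and -0.05. Rxra, the main partner of the other receptors by level, had 209.3, 231.6 and 200.5 CPM in Vil.Cre Maf.flox, against 247.3, 223.7 and 193.7 CPM in Maf.flox, and the groups overlapped. Rxrb had 59.8, 55.9 and 60.5 CPM in Vil.Cre Maf.flox and 66.1, 65.6 and 69.7 CPM in Maf.flox. Its groups did not overlap, with a log2 fold change of -0.19 (SE 0.0886, edgeR adjusted p = 0.326). The FPKM of Rxra and Rxrb summed to 55.2 ± 2.06 in Vil.Cre Maf.flox and 58.5 ± 4.85 in Maf.flox, while that of 12 members that pair with them summed to 180.9 ± 15.2 and 189.0 ± 11.5 (SD, n = 3 each). Rara, the retinoic acid receptor with the highest level, ranged from 41.7 to 56.4 CPM in Vil.Cre Maf.flox and from 48.6 to 62.4 CPM in Maf.flox. Rarg ranged from 6.16 to 8.52 CPM and from 5.79 to 8.85 CPM. Of the 10 listed retinoic acid receptor target genes, 5 could be tested, and 3 lay below 0 and 2 above, with 0 called. Lrat, which stores retinol as esters, had a log2 fold change of -1.18, and Dhrs3, which reduces retinal, had -0.64. The 2 above 0 were Cyp26b1 with 1.74 and Tgm2 with 0.36. Cyp26b1 was low, at 0.558 to 1.76 CPM in Vil.Cre Maf.flox and 0.294 to 0.332 CPM in Maf.flox. At an unadjusted edgeR p under 0.05, 2 were lower and 2 higher (9.25% and 7.11% of all genes). The median of the 5 tested genes, -0.11, turned to 0.08 without Maf.flox replicate 2. It was 0.28 within males, -0.38 within females and -0.37 under a stricter filter (1 CPM in 3 libraries).

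The glucocorticoid receptor gene Nr3c1 had 150.5, 155.1 and 177.1 CPM in Vil.Cre Maf.flox, against 201.9, 203.0 and 191.5 CPM in Maf.flox. The groups did not overlap, and the log2 fold change was -0.31 (SE 0.103, edgeR adjusted p = 0.198). It was -0.40 within males and -0.16 within females. Nr3c2, the mineralocorticoid receptor, which aldosterone activates, ranged from 42.7 to 55.6 CPM in Vil.Cre Maf.flox and from 42.7 to 51.6 CPM in Maf.flox, with a 95% interval of -0.28 to 0.29. All 8 tested glucocorticoid receptor target genes lay below 0 with a median of -0.67, and 0 passed. At an unadjusted edgeR p under 0.05, 5 were lower, and 4 were lower without overlap (9.25% and 10.5% of all genes). Fkbp5, Ddit4 and Klf9 lay nearest 0, at -0.13, -0.12 and -0.09. Tsc22d3, which encodes the glucocorticoid-induced leucine zipper, had 27.5, 32.9 and 40.6 CPM in Vil.Cre Maf.flox and 69.3, 67.6 and 46.5 CPM in Maf.flox (log2 fold change -0.86, edgeR adjusted p = 0.0875). Per1, a clock gene with a glucocorticoid response element, had a log2 fold change of -1.43 (edgeR adjusted p = 0.0708). Of 4 listed enzymes that make or inactivate corticosteroids, 2 had a row, and of these Cyp11a1 had too few reads to test. Hsd11b2, which inactivates cortisol and corticosterone, had a log2 fold change of 0.11.

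Both thyroid hormone receptors were lower in each Vil.Cre Maf.flox library than in any Maf.flox library, and neither passed. Thra, the main form in crypt cells, had 99.3, 132.8 and 105.9 CPM in Vil.Cre Maf.flox and 140.9, 160.7 and 136.9 CPM in Maf.flox. Its log2 fold change was -0.38 (SE 0.132, edgeR adjusted p = 0.211), with -0.28 within males and -0.49 within females. Thrb had 25.4, 29.2 and 25.6 CPM in Vil.Cre Maf.flox and 34.1, 30.8 and 30.5 CPM in Maf.flox, a log2 fold change of -0.25 (SE 0.108, edgeR adjusted p = 0.295). Thra exceeded Thrb in FPKM by a factor of 6.73 ± 0.515 in Vil.Cre Maf.flox and 7.41 ± 0.88 in Maf.flox (SD, n = 3 each).

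In edgeR's fit the calls among the listed genes were both on the thyroid list. All 5 tested genes that move, activate or answer to thyroid hormone lay below 0, and 2 were called lower. These were the 2 called of 100 tested genes over all lists, against 0.546% of all genes (0.357% lower, 0.189% higher). The rest, Hr, Klf9 and Me1, had log2 fold changes of -0.23, -0.09 and -0.20, with edgeR unadjusted p-values of 0.19, 0.467 and 0.4. Slc16a10, a carrier of thyroid hormone and aromatic amino acids, had 37.6, 29.5 and 37.7 CPM in Vil.Cre Maf.flox, against 137.0, 166.2 and 99.8 CPM in Maf.flox. Every Vil.Cre Maf.flox library was far below every Maf.flox library, and the log2 fold change was -1.94 (SE 0.194, edgeR adjusted p = 0.0133). Dio1, a deiodinase that converts thyroxine and clears its products, had 10.8, 19.3 and 18.7 CPM in Vil.Cre Maf.flox and 56.8, 51.5 and 44.0 CPM in Maf.flox. It had no overlap either, with a log2 fold change of -1.64 (SE 0.22, edgeR adjusted p = 0.0309). Under 14 alternative fits Slc16a10 was called in 12 and Dio1 in 9, with log2 fold changes from -2.11 to -1.75 and from -1.76 to -1.41. Their highest adjusted p-values over those fits were 0.0766 and 0.101. The genes named for their small p in other lists were called in at most 5 of these fits. Angptl4 was called in 5, and Per1, Nfil3, Mylip, Junb and Dhrs3 in 4 each. The median of the thyroid list was -0.23, or -0.07 without Vil.Cre Maf.flox replicate 1 and -0.38 without Maf.flox replicate 3.

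The clock receptors Nr1d1, Nr1d2 and Rora had the 3 lowest log2 fold changes of the 28 tested members, and none passed. Nr1d1 had 25.0, 36.2 and 34.9 CPM in Vil.Cre Maf.flox, against 42.0, 136.4 and 73.7 CPM in Maf.flox. The Vil.Cre Maf.flox libraries lay close together, and the Maf.flox libraries were spread over more than the gap between the groups. Its log2 fold change was -1.39 (SE 0.431, edgeR adjusted p = 0.203), and without Maf.flox replicate 2, the highest library, it was -0.85. Nr1d2 had 9.33, 12.7 and 17.4 CPM in Vil.Cre Maf.flox and 19.9, 47.5 and 34.01 CPM in Maf.flox. Maf.flox replicate 1 was again the lowest of its group and replicate 2 the highest. The log2 fold change was -1.36 (SE 0.347, edgeR adjusted p = 0.132), between -1.62 and -1.02 over the alternatives, with adjusted p-values from 0.000512 by DESeq2 to 0.43. Rora, which encodes the activator ROR alpha, had only 7, 5 and 7 counts in Vil.Cre Maf.flox and 14, 17 and 24 in Maf.flox. These are 0.355, 0.294 and 0.300 CPM, against 0.589, 0.885 and 1.14 CPM, and the log2 fold change was -1.44 (SE 0.41, edgeR adjusted p = 0.146). Within males and within females the ratios were -0.46 and -1.59 for Nr1d1, -0.86 and -1.23 for Nr1d2, and -0.86 and -1.76 for Rora. Thra and Nr1d1 lie on opposite strands and share 263 exon bases at chr11:98767932-98769006, which are 5.7% of the exon bases of Thra and 8.55% of those of Nr1d1.

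Of the 13 tested clock partners of REV-ERB and ROR, 10 lay below 0 and 3 above, with a median of -0.68, and 0 passed, while 6 were lower and 1 higher at an unadjusted p under 0.05 (9.25% and 7.11% of all genes). Per1, a repressor of the core loop, had 6.796, 12.4 and 9.76 CPM in Vil.Cre Maf.flox and 28.3, 31.4 and 17.9 CPM in Maf.flox. Nfil3, a repressor that REV-ERB alpha controls, had 37.1, 34.7 and 37.9 CPM in Vil.Cre Maf.flox and 26.2, 17.8 and 23.1 CPM in Maf.flox (log2 fold change 0.71, edgeR adjusted p = 0.0736). Per1 was lower and Nfil3 higher in every Vil.Cre Maf.flox library than in any Maf.flox library. Arntl, Dbp and Tef were chosen after their values were seen. Arntl, which encodes the core clock activator BMAL1, had 55.2, 60.5 and 51.5 CPM in Vil.Cre Maf.flox and 65.0, 33.0 and 38.6 CPM in Maf.flox. Dbp, an output activator, had 0.0507, 1.116 and 1.112 CPM in Vil.Cre Maf.flox and 0.799, 14.3 and 6.07 CPM in Maf.flox. Tef, another output activator, had 3.60, 12.5 and 8.52 CPM in Vil.Cre Maf.flox and 15.5, 45.7 and 23.0 CPM in Maf.flox. Maf.flox replicate 1 had the lowest Nr1d1, Nr1d2, Dbp and Tef of its group and the highest Arntl, and in Dbp it lay within the range of the Vil.Cre Maf.flox libraries. All of these genes change over the day in mouse tissues, and since no hour of collection is labelled, genotype and hour cannot be told apart.

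**Figure D3:**
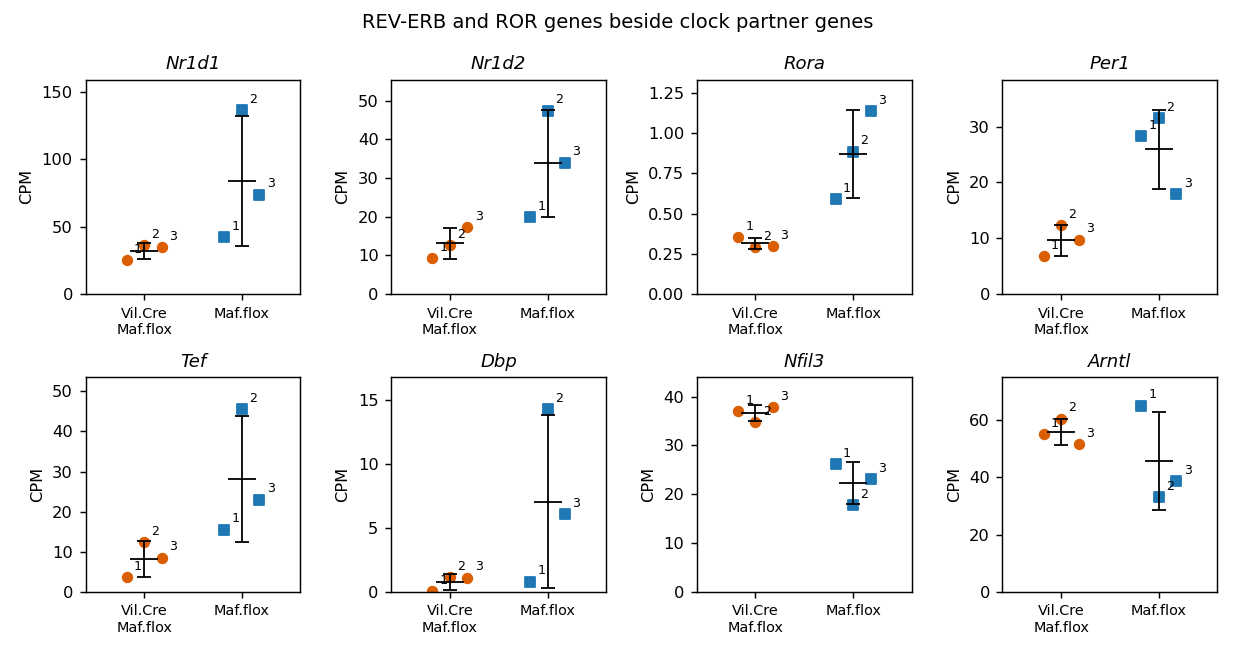
CPM of Nr1d1, Nr1d2 and Rora and of 5 clock partner genes in each library, Vil.Cre Maf.flox left of Maf.flox, with replicate numbers beside the points and bars for mean and SD (n = 3 each). Maf.flox replicates 2 and 3 are high for Nr1d1, Nr1d2, Tef and Dbp and low for Arntl, and the Vil.Cre Maf.flox libraries lie close together in most panels.

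The Nr4a receptors have no known need for a ligand and are induced as immediate early genes. Nr4a1 had 8.78, 15.4 and 21.1 CPM in Vil.Cre Maf.flox, against 15.2, 34.9 and 31.4 CPM in Maf.flox. The groups overlapped, since Vil.Cre Maf.flox replicates 2 and 3 exceeded Maf.flox replicate 1. The log2 fold change was -0.84 (SE 0.4, edgeR adjusted p = 0.363), and it was -1.17 when Vil.Cre Maf.flox replicate 3 was left out, -0.56 when replicate 1 was, and -0.50 with a term for sex. Nr4a2, which encodes NURR1, ranged from 3.75 to 6.52 CPM in Vil.Cre Maf.flox and from 5.41 to 7.73 CPM in Maf.flox. The 11 immediate early genes listed beside them all lay below 0, with a median of -0.67. None passed, while 8 were lower at an unadjusted p under 0.05, and 7 were without overlap, lower in Vil.Cre Maf.flox (9.25% and 10.5% of all genes). Junb, a subunit of AP-1, had 225.2, 303.7 and 234.4 CPM in Vil.Cre Maf.flox and 393.2, 481.0 and 336.0 CPM in Maf.flox (log2 fold change -0.66, edgeR adjusted p = 0.11). Btg2, an antiproliferative gene that p53 also induces, had 67.0, 95.9 and 100.6 CPM in Vil.Cre Maf.flox and 145.4, 189.7 and 124.6 CPM in Maf.flox (-0.80, edgeR adjusted p = 0.11). Maf.flox replicate 2 was the highest library for Nr4a1, Junb and Btg2. Such genes respond within minutes, and the labels give no time from tissue to lysis, whose part was not tested.

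Esrra had 329.2, 330.5 and 277.4 CPM in Vil.Cre Maf.flox and 367.1, 351.5 and 321.2 CPM in Maf.flox. Vil.Cre Maf.flox replicates 1 and 2 exceeded the lowest Maf.flox library, and the log2 fold change of -0.15 had a 95% interval of -0.42 to 0.12. Esrrg, a constitutively active relative, ranged from 5.76 to 12.5 CPM in Vil.Cre Maf.flox and from 6.601 to 10.86 CPM in Maf.flox, and its fold change of 0.05 on the log2 scale changed sign as single libraries were left out. Of 8 tested ERR coactivators and target genes, 6 lay above 0 and 2 below, with a median of 0.18 and 0 called. Cycs, which encodes cytochrome c, had 317.9, 266.2 and 226.7 CPM in Vil.Cre Maf.flox and 220.4, 198.9 and 174.5 CPM in Maf.flox (log2 fold change 0.45, edgeR adjusted p = 0.188). Ppargc1a, the coactivator PGC-1 alpha, had 24.0, 24.3 and 26.8 CPM in Vil.Cre Maf.flox and 30.9, 36.4 and 30.3 CPM in Maf.flox, with no overlap (-0.38, edgeR adjusted p = 0.162).

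Among the orphan receptors, Nr5a2, which encodes LRH-1, a factor of crypt renewal and of local glucocorticoid synthesis, ranged from 75.4 to 91.0 CPM in Vil.Cre Maf.flox and from 90.6 to 100.1 CPM in Maf.flox. The ranges overlapped slightly, and the 95% interval ran from -0.42 to 0.06. Nr6a1, the germ cell nuclear factor, had 10.8, 9.87 and 14.5 CPM in Vil.Cre Maf.flox, against 20.98, 16.61 and 12.8 CPM in Maf.flox. Its log2 fold change of -0.52 (SE 0.216, edgeR adjusted p = 0.278) was -1.03 within males and -0.02 within females, and it ran from -0.70 to -0.32 as single libraries were left out, the smallest without Maf.flox replicate 1. Nr2c2, the testicular receptor TR4, had 28.1, 27.0 and 29.3 CPM in Vil.Cre Maf.flox and 32.3, 36.3 and 29.4 CPM in Maf.flox, which left almost no gap between Vil.Cre Maf.flox replicate 3 and Maf.flox replicate 3. Nr2f2, which encodes COUP-TF2, a factor mainly of stroma and endothelium, had 13.5, 13.9 and 14.2 CPM in Vil.Cre Maf.flox and 15.4, 14.5 and 14.8 CPM in Maf.flox. Its groups did not overlap, yet the log2 fold change was only -0.10 (SE 0.119, edgeR adjusted p = 0.73). Nr2c1 (TR2) ranged from 17.3 to 17.97 CPM in Vil.Cre Maf.flox and from 17.2 to 19.3 CPM in Maf.flox. Nr2f6 ranged from 74.4 to 78.2 CPM in Vil.Cre Maf.flox and from 75.58 to 78.02 CPM in Maf.flox, the narrowest interval of the 28 members (-0.21 to 0.19). Opposite-strand genes cover 54.4% of the exon bases of Nr2f6 (Ocel1), 30.7% of those of Nr2c2 (Mrps25) and 7.46% of those of Nr2f2 (B130024G19Rik).

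No coregulator and no other nuclear receptor outside the 34 was called by edgeR. Of 14 tested coregulators, 9 lay below 0 and 5 above, with a median of -0.16. Besides Ppargc1a, the corepressor gene Nrip1 had the smallest p, with a log2 fold change of -0.43. Of 7 other tested nuclear receptors, 5 lay below 0 and 2 above, with a median of -0.07 that was -0.40 without Vil.Cre Maf.flox replicate 2 and -0.03 without replicate 1. Hnf4g, an enterocyte partner of Hnf4a, had 181.9, 194.1 and 186.4 CPM in Vil.Cre Maf.flox and 267.2, 281.7 and 213.2 CPM in Maf.flox (log2 fold change -0.44, edgeR adjusted p = 0.142). Its groups did not overlap, and it was called in 2 of 14 alternative fits. Nr2e3, a photoreceptor gene, had a log2 fold change of -0.56. The medians of the clock, immediate early, coregulator and ERR lists were nearer 0 without Vil.Cre Maf.flox replicate 1, at -0.43, -0.43, -0.09 and 0.12, and that of the ERR list was 0.09 with a term for sex.

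**Figure D4:**
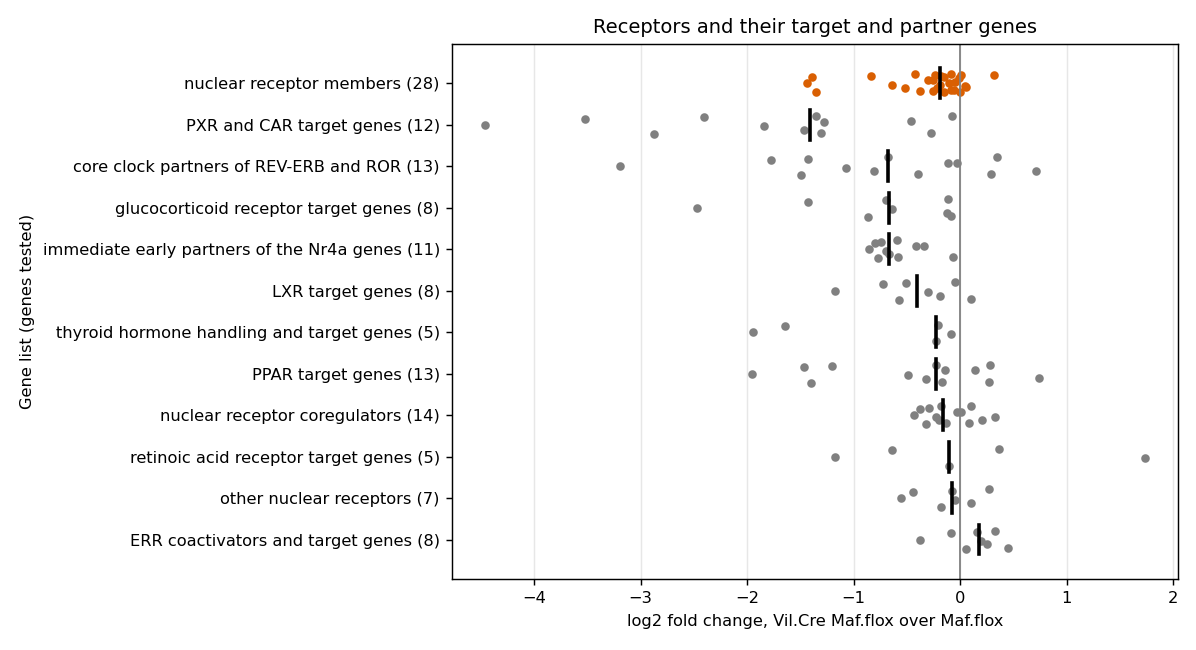
Log2 fold changes, Vil.Cre Maf.flox over Maf.flox, of the 28 nuclear receptor genes (orange) and of the tested genes of 11 lists of targets and partners (grey), with a black bar at each median and the number of genes tested in parentheses. The receptors cluster near 0 around a median of -0.19, the PXR and CAR targets reach the lowest median of -1.41, and the ERR list alone has a median above 0.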

How the data were processed

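The table deposited by the authors gives whole-number counts and FPKM per gene. The submitters' processing notes name the GRCm38 (mm10) build, DESeq2, featureCounts 1.5.0-p3 and HISAT2 2.0.5. Whether libraries or counting kept strand is not given in the sources used here. FPKM values deposited by the authors served only to rank levels and were not tested, so no pseudocount alternative applied. The test on counts used edgeR 4.0.16 (R 4.3.3): filterByExpr (least count 10), TMM scaling, genotype as the only term, robust quasi-likelihood F test, Benjamini-Hochberg adjustment over 13740 genes. Intervals of 95% come from the fold change and its standard error. Pairs of libraries within a group differed by a chi-square of 36 to 132 per gene, so none was a copy. Alternatives were RLE and upper quartile scaling, no filter, a stricter filter (1 CPM in 3 libraries), DESeq2 1.42.0, limma-voom (limma 3.58.1), a replicate block, a sex term, FDR 0.1 and 0.01, and each library left out. Gene overlaps come from GENCODE M21, which gave 30 of 32 members the same start and end, and promoters from RefSeq. The members and the gene lists were chosen with earlier results of these data known. Values per library are given for members past FDR 0.05, without overlap between groups, among the 12 smallest p-values or the 6 highest mean FPKM, and the 2 genes with the smallest p of each list are named with any that passed.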

Additional observations from a re-analysis of the deposited data

How the results depend on the processing

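The 75 genes called over all genes became 365 with no filter, 742 by DESeq2, 30 by limma-voom, 440 with a replicate block, 38 with a sex term, 372 at an FDR of 0.1 and 2 at 0.01, and 8 to 701 with single libraries left out. The count of called members, 0, became 2 by DESeq2 and 2 with the replicate block, which called Nr1d2 (adjusted p = 0.0148) and Nr4a1 (0.0193), and was 0 in each left-out fit. The 2 called list genes became 11 with no filter, 23 by DESeq2, 15 with the replicate block, 1 with a sex term, 3 with upper quartile scaling, and 0 to 26 with libraries left out. Same-numbered libraries did not deviate together (r = 0.0917, -0.0256 and 0.269 over genes for numbers 1, 2 and 3), and the labels tie no numbers, so the numbers were not taken to pair the libraries. Of 28 members, 20 kept their sign in each of the 14 alternative fits that tested them. Log2 fold changes near 0 reversed for Nr1h3 and Nr3c2 with a sex term (-0.016 and -0.051), for Nr2f6 with upper quartile scaling (0.016), no filter (0.011) and DESeq2 (0.000384), and for Pparg with RLE (0.0028), upper quartile (0.027), no filter (0.018) and DESeq2 (0.0055). With single libraries left out, reversals occurred in Esrrg (-0.333 to 0.281), Nr1h2 (-0.102 to 0.014), Nr1h3 (-0.066 to 0.152), Nr2f6 (-0.019 to 0.00891), Nr3c2 (-0.085 to 0.092), Pparg (-0.166 to 0.125), Rarg (-0.251 to 0.042) and Rxra (-0.139 to 0.045), and in the retinoic acid receptor list median (-0.231 to 0.08). The cause of these reversals was not tested. The members' median lay between -0.217 and -0.143. Rora was not tested under the stricter filter. Depth limits Rora and the 4 untested members.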
